A study of Mus musculus with 16 samples.

Results

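HAT1, its WD-repeat partners RBBP4 and RBBP7, the deacetylases that share those partners, and the chaperones that carry newly made histones to DNA are encoded by 10 genes followed here: Hat1, Rbbp4, Rbbp7, Hdac1, Hdac2, Asf1a, Asf1b, Nasp, Chaf1a and Chaf1b. They were chosen by name, out of 47643 gene symbols measured by RNA-seq in the tibialis anterior muscle, a fast muscle of the lower hindlimb, of C57BL6/J mice labelled male. The mice carried loxP-flanked Ubr4 alleles (UBR4 fl/fl). UBR4 mKO mice also carried a Cre recombinase that is active after tamoxifen and is driven by the skeletal muscle actin (ACTA1) promoter, so that Ubr4 is deleted in myofibers but not in the other cells of the muscle. WT mice were UBR4 fl/fl animals without Cre that received tamoxifen too. Each genotype was sampled at 6 and at 24 months of age, with 4 biological replicates in each of the 4 groups and 16 samples in all. All values are TPM, a length-normalised measure in which each gene is divided by its length and each sample sums to 1000000. The read depth behind them is unknown, so the spread over the 4 replicates is the only error available.

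New histones H3 and H4 are acetylated on the tail of H4 by HAT1, a type B acetyltransferase that works on free histones before they reach chromatin. RBBP7, the histone-binding subunit that raises its activity, and its close relative RBBP4 both bind the first helix of H4. RBBP4 is also the small subunit of chromatin assembly factor 1 (CAF-1), together with CHAF1A and CHAF1B, and RBBP4 and RBBP7 are subunits of the NuRD and SIN3 deacetylase complexes with HDAC1 and HDAC2, and of the methyltransferase complex PRC2. NASP holds a reserve of soluble H3-H4, and ASF1A and ASF1B pass H3-H4 dimers on to CAF-1 during replication or to HIRA outside it. Myofiber nuclei do not divide, so replication-coupled members of this group are chiefly used by the dividing cells of a muscle, while HDAC1 and HDAC2 act in myofibers as well. UBR4 is a very large E3 ubiquitin ligase that works with the ubiquitin-conjugating enzyme UBE2B, and HAT1 protein is one of its known ubiquitination targets. The study asked how muscle changes when Ubr4 is lost in young and in old animals, and the transcripts below are one side of that question: RNA levels, not protein.

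Over most of its coding sequence, Hdac1 is hard to tell apart from a copy of itself. Hdac1, on the minus strand of chromosome 4 (chr4:129516104-129542713, GRCm38), has a processed pseudogene, Gm10093, on the plus strand of chromosome 17 (chr17:78491582-78493025). The GENCODE transcript of Gm10093 is 1444 bases long, aligns from base 85 to base 1528 of the 2038-base Hdac1 transcript and so spans nearly the whole coding sequence, which runs from base 85 to base 1530. The 2 transcripts are 99.38% identical there. They differ at 9 bases with no insertion or deletion, and 905 of the 1345 stretches of 100 bases, the read length of the study, are letter for letter the same in both (67.3%). Of all stretches of 100 bases in the whole Hdac1 transcript, 46.7% are the same in Gm10093. The stretch below holds 6 of the 9 differences and is shown because it is where reads from the gene and from its copy can best be told apart. It is coding sequence of Hdac1 from 2 exons (chr4:129522963-129523072 and chr4:129522495-129522504, minus strand), bases 469 to 588 of the transcript, against chr17:78491966-78492085 of the copy. Capitals mark the bases that differ.
Hdac1: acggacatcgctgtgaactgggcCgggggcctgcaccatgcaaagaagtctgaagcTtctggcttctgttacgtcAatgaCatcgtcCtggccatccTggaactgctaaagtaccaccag
Gm10093: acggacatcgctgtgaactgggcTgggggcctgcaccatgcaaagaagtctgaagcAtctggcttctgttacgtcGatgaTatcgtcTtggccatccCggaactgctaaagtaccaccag
Counted from the first base of the Hdac1 transcript, with the Hdac1 base first, the substitutions in this stretch are C492T, T525A, A544G, C549T, C556T and T566C, and the others in the coding sequence are G426A, T803C and C1254A. Other processed pseudogenes resemble members less closely. AC125456.1 is 96.28% and Gm4864 94.42% identical to Hdac1 where aligned, and Gm4800 is 90.95% identical to Rbbp4. None of these has a value here. Gm6382 is 97.13% identical to Rbbp7 over 942 bases and was at 0 TPM.

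Several facts about the libraries bear on the results. All 8 libraries from 6 months held Xist, the RNA made from the inactive X of females, at 0.711 to 23.8 TPM, while all 8 from 24 months had at most 0.0252 TPM. The Y-linked gene Ddx3y was at 2.29 to 13.4 TPM in WT at 6 months, 13.2 to 22.6 TPM in UBR4 mKO replicates 1 to 3 at 6 months, 0.0730 TPM in UBR4 mKO replicate 4 at 6 months and 13.5 to 30.5 TPM at 24 months. The 6-month libraries therefore go against their label of male, UBR4 mKO replicate 4 most of all, and age cannot be told apart from this difference. The genotypes at 6 months differed in Y-linked RNA as well. Eif2s3y was at 1.69 to 9.88 TPM in WT, 14.5 to 18.4 TPM in UBR4 mKO replicates 1 to 3 and 0.0823 TPM in replicate 4. The comparison of genotypes at 6 months is thus not free of this difference either. Transcripts of the 37 mitochondrial genes took 52.6 to 59.7% of the TPM in WT at 6 months, against 46.1 to 49.8% in UBR4 mKO at 6 months, 47.8 to 51.7% in WT at 24 months and 46.3 to 49.8% in UBR4 mKO at 24 months. Because each sample sums to the same total, a larger mitochondrial share lowers every other gene, and the median of all 10628 genes with a mean of at least 1 TPM was 0.33 higher on the log2 scale in UBR4 mKO than in WT at 6 months and 0.26 higher in WT at 24 than at 6 months. The main results are therefore given on the TPM as deposited, with values after median-of-ratios scaling beside those that it touches. This scaling divides each sample by its median ratio to the average sample and brings those medians to -0.02 and -0.00. The tissue matched its label, with 8 myofiber markers summing to 66960 to 93030 TPM in every library. Ubr4 itself was at 11.1, 15.7, 13.2 and 9.09 TPM in WT and at 4.98, 4.91, 5.52 and 6.54 TPM in UBR4 mKO at 6 months, and fell by 1.12 on the log2 scale (adjusted p = 0.00365, limma). At 24 months it was at 17.2, 17.0, 17.8 and 21.1 TPM in WT and at 10.1, 14.6, 4.28 and 7.63 TPM in UBR4 mKO (log2 fold change -1.12, adjusted p = 0.0598), and fell after median-of-ratios scaling (-1.14, adjusted p = 0.0281).

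The members spanned a wide range of levels, and their order was nearly fixed. Rbbp7 was the most abundant, at 57.6 TPM on average over the 16 samples (43.6 to 69.9 TPM), above every other member in every sample. Hdac2 followed at 16.1 TPM, above Rbbp4 at 11.2 TPM in 16 of 16 samples, although their ranges of 12.9 to 18.3 and 7.94 to 14.2 TPM overlap. Rbbp4, Asf1a (8.69 TPM) and Hat1 (8.01 TPM) were neighbours whose order was not the same in all samples: Rbbp4 was above Asf1a in 15 of 16 and Asf1a above Hat1 in 13 of 16. Hdac1 (3.32 TPM) and Nasp (2.08 TPM) came next. The CAF-1 subunits Chaf1a (0.607 TPM) and Chaf1b (0.0975 TPM) and the proliferation-linked paralog Asf1b (0.340 TPM) stayed under the minimum mean of 1 TPM, so 7 of the 10 members entered the fit across all genes and 3 did not. Relative to its own mean Hdac1 varied most of these 7 (coefficient of variation 33.1% over the 16 samples) and Asf1a least (8.74%).

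**Figure D1:**
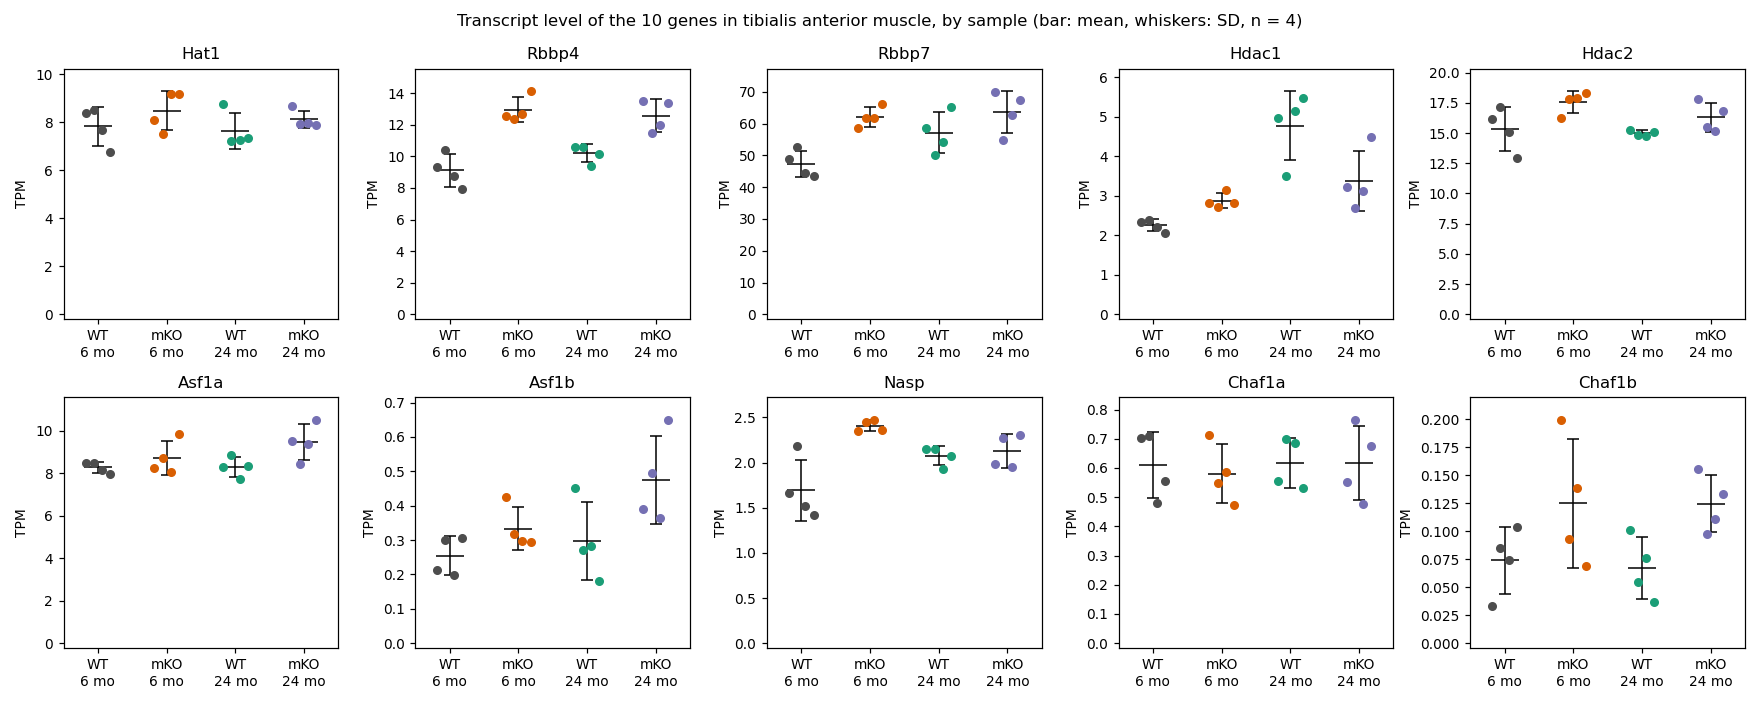
Level of each of the 10 genes in TPM (vertical axis of each panel, from about 0) in the 4 groups. Points are samples, bars are means and whiskers are SD (n = 4). Rbbp4 and Nasp are higher in all UBR4 mKO than in all WT samples at 6 months, and Hdac1 is higher in all WT samples at 24 months than in any sample at 6 months.

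At 6 months, the comparison of UBR4 mKO with WT asks what loss of Ubr4 does in young muscle. On the TPM as deposited, Rbbp4, Rbbp7 and Nasp rose by 1.31 to 1.42 times, Hat1 itself did not pass the test, and the remaining tested members did not either. After median-of-ratios scaling none of the 3 passed, and Asf1a fell. The 3 calls thus depended on the kind of scaling. With upper-quartile scaling, or without mitochondrial genes, Rbbp4 kept its call, and Rbbp7 and Nasp lost theirs. The 3 calls also have to be read against a background in which 43.7% of all tested genes were called higher. The share of 3 of the 7 tested members is near that, and the members' median change of 0.34 on the log2 scale stood beside a median of 0.33 over all genes.

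Hat1, the acetyltransferase, was at 8.37, 8.51, 7.67 and 6.74 TPM in WT and at 8.09, 7.50, 9.16 and 9.15 TPM in UBR4 mKO. The groups overlap, with 2 UBR4 mKO samples above all WT samples and the other 2 among them. On the log2 scale the change was 0.12 with a 95% interval of -0.10 to 0.33 (adjusted p = 0.348, limma on log2(TPM + 0.1), as in all such tests below). After median-of-ratios scaling it was -0.23 with an interval of -0.41 to -0.06 (adjusted p = 0.0578), so the sign of the Hat1 value is set by the scaling. The RNA of UBR4's ubiquitination target was thus not shown to rise on either scale.

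Rbbp4 was at 9.31, 10.4, 8.77 and 7.94 TPM in WT and at 12.6, 12.4, 12.7 and 14.2 TPM in UBR4 mKO, without overlap. It rose by 0.51 ± 0.10 (SE) on the log2 scale (adjusted p = 0.00121). After scaling the groups still did not overlap (10.3 to 11.1 against 11.8 to 12.1 scaled TPM), but the change was 0.16 ± 0.06 (adjusted p = 0.0887). Rbbp7, the subunit that pairs with HAT1 and lies on the X chromosome, was at 48.8, 52.6, 44.4 and 43.6 TPM in WT and at 58.5, 61.9, 61.8 and 66.1 TPM in UBR4 mKO. These groups do not overlap either, and Rbbp7 rose by 0.39 ± 0.10 (adjusted p = 0.00551), a call lost with Dunn's test after Kruskal-Wallis (adjusted p = 0.0611), where Rbbp4 and Nasp passed. After scaling its change was 0.04 ± 0.08 (adjusted p = 0.780). Without UBR4 mKO replicate 4, the library with the highest Xist and hardly any Y-linked RNA, Rbbp4 rose by 0.47 (adjusted p = 0.00502) and Rbbp7 by 0.36 (adjusted p = 0.0192) on the TPM as deposited. With Xist as a covariate the increases were 0.52 (adjusted p = 0.000696) and 0.41 (adjusted p = 0.00391).

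Nasp, the H3-H4 reserve chaperone, was at 1.66, 2.18, 1.52 and 1.42 TPM in WT and at 2.35, 2.45, 2.47 and 2.36 TPM in UBR4 mKO. Here too the groups do not overlap, and WT replicate 2 lies nearest to the UBR4 mKO samples. Nasp rose by 0.50 ± 0.13 on the log2 scale (adjusted p = 0.00722), and by 0.51 (adjusted p = 0.0169) without UBR4 mKO replicate 4. After scaling the value was 0.16 (adjusted p = 0.232). Asf1a, the chaperone that hands histones on in resting cells as well, was at 7.99 to 8.51 TPM in WT and 8.04 to 9.85 TPM in UBR4 mKO, with overlap, and its change was 0.07 (adjusted p = 0.543). It fell by 0.28 after median-of-ratios scaling (adjusted p = 0.0417), where 10.2% of all genes were called lower and 6.66% higher, and that call was lost without any one of 9 of the 16 samples (-0.22 to -0.35 over the 16, adjusted p = 0.0181 to 0.139). These were WT replicates 1, 3 and 4 and UBR4 mKO replicates 1, 2 and 3 at 6 months and WT replicates 1, 3 and 4 at 24 months. Hdac1 (0.34, adjusted p = 0.0782) and Hdac2 (0.20, adjusted p = 0.0777) did not pass, and their scaled values were 0.00 (adjusted p = 0.999) and -0.15 (adjusted p = 0.0921). On the TPM as deposited, Hdac1 passed when summed with its copy (0.36, adjusted p = 0.0202) and in a fit of only the groups compared (adjusted p = 0.0416). Hdac2 passed with Xist as a covariate (0.22, adjusted p = 0.0437). Both passed with array weights (adjusted p = 0.0402 and 0.0327).

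The 4 members without overlap at 6 months, all higher in UBR4 mKO, were Rbbp4, Rbbp7, Hdac1 and Nasp, and 39.0% of the 10628 tested genes showed the same. Among the members at low level, Chaf1a was at 0.479 to 0.710 TPM in WT and 0.473 to 0.714 TPM in UBR4 mKO (exact permutation test, p = 0.714, two-sided over 70 assignments, the smallest possible being 0.0286). Asf1b was at 0.199 to 0.307 and 0.293 to 0.426 TPM (exact permutation p = 0.171). Chaf1b, the WD-repeat subunit of CAF-1, was at 0.0332 to 0.104 and 0.0685 to 0.199 TPM (exact permutation p = 0.200). All 3 overlap between the groups, and after Benjamini-Hochberg adjustment over 20025 genes the exact permutation p-values were 0.316 to 0.875. Even a gene without overlap had an adjusted exact permutation p of 0.102 here, so none of the 3 could pass.

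Signs of other cells moved with the genotype at 6 months. All 5 tested leukocyte markers of 10 listed rose in UBR4 mKO on both scales, among them the macrophage genes Cd68 (by 2.77 on the log2 scale, adjusted p = 0.000287) and Lyz2 (2.05, adjusted p = 0.00168). The 9 of them in the table summed to 16.3 to 24.2 TPM in WT and 53.4 to 187 TPM in UBR4 mKO, and the T-cell gene Cd3e was listed at 0 in all 4 WT samples. The 17 replication and mitosis genes summed to 16.6 to 22.5 TPM in WT and 23.0 to 29.2 TPM in UBR4 mKO, and 3 of the 6 that were tested rose, near the 43.7% of all genes, and 1 of 6 after scaling, with the deoxynucleotide synthesis gene Rrm2 by 1.57 (adjusted p = 0.00022) and, after scaling, by 1.26 (adjusted p = 0.00301). Endothelial markers summed to 89.3 to 119 TPM and 142 to 148 TPM, and their 5 calls of 6 on the TPM as deposited became 0 of 6 after scaling (0 also at an unadjusted p under 0.05). Fibroblast markers had 4 of 6 higher, and 1 of 6 after scaling. Satellite cell markers summed to 21.3 to 28.0 TPM in WT and 31.4 to 38.1 TPM in UBR4 mKO, with 1 of 3 tested higher on both scales (2.16 and 1.82) and 1 lower after scaling. Adipocyte markers summed to 281 to 319 and 388 to 418 TPM, with 1 of 3 tested higher as deposited and 0 after scaling, also at an unadjusted p under 0.05. Of 7 slow myofiber markers 2 rose on both scales. Schwann cell markers lay the other way, with a median of -0.06 as deposited, where limma called 0 of 4 tested (0 also at an unadjusted p under 0.05), and of -0.40 after scaling, where 1 fell (3 at an unadjusted p under 0.05). Blood markers had medians of -0.295 and -0.649, with 0 of 5 called by limma on either scale (0 and 3 at an unadjusted p under 0.05). The part of these cells in the values of Rbbp4, Rbbp7 and Nasp was not tested, and in bulk muscle more cells of a type and more RNA per cell cannot be told apart.

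**Figure D2:**
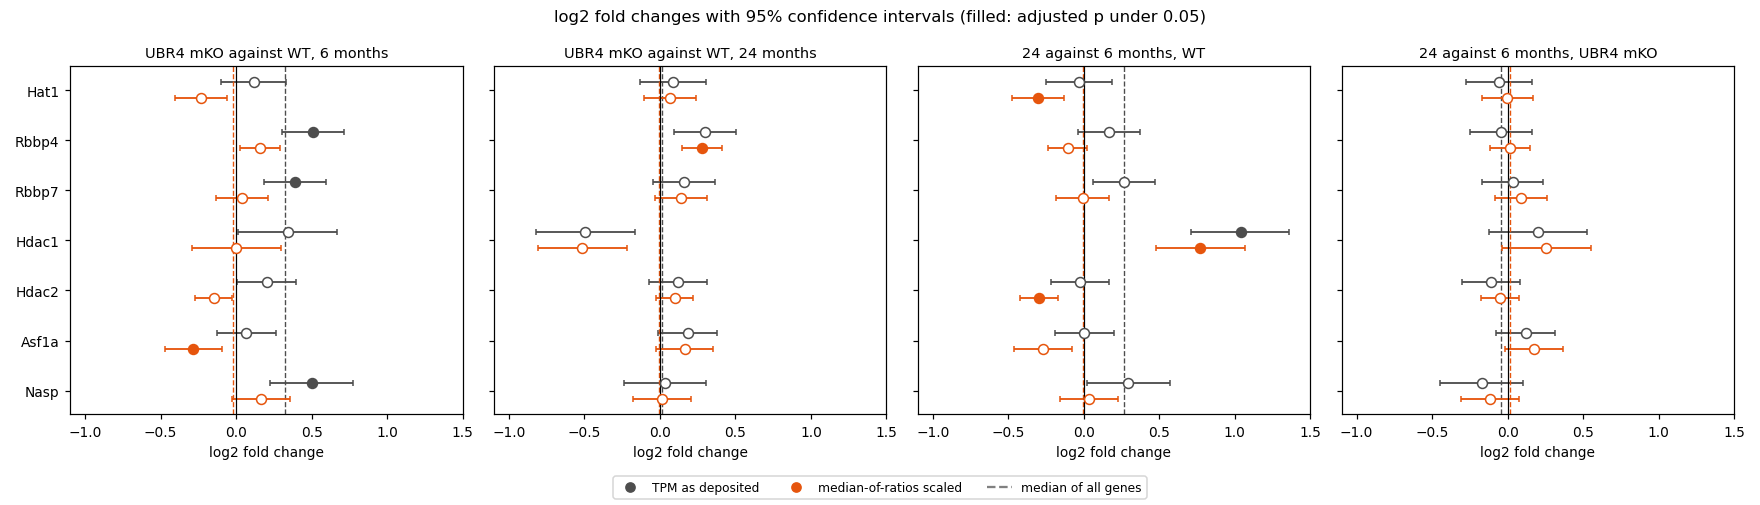
Change of each of the 7 tested members (rows) on the log2 scale in 4 comparisons (panels), with 95% confidence intervals. Grey is the TPM as deposited, orange is median-of-ratios scaled, filled points have an adjusted p under 0.05, and dashed lines are the median of all 10628 tested genes. At 6 months the grey values of Rbbp4, Rbbp7 and Nasp lie near or right of a median of 0.33, and the orange ones lie within 0.17 of 0.

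Rbbp4 has a limit of its own. Its exons on chromosome 4 (chr4:129307100-129335370, minus strand) overlap those of genes on the other strand: 782 of its 8744 exonic bases are shared with Sync, which encodes the intermediate filament protein syncoilin of muscle, and 796 with the long noncoding RNA Gm26722. Whether strand was used in counting is not stated, so reads from these bases cannot be told apart. Both neighbours were more abundant than Rbbp4, at 25.4 and 17.5 TPM on average over the 16 samples. Gm26722 was at 11.3, 13.9, 12.2 and 9.92 TPM in WT and at 28.0, 22.7, 25.8 and 23.9 TPM in UBR4 mKO at 6 months. It rose by 1.08 ± 0.11 on the log2 scale (adjusted p = 1.41e-05), and by 0.73 after scaling (adjusted p = 0.000402). Sync rose by 1.08 ± 0.15 (adjusted p = 0.00016), from 15.0 to 18.9 TPM in WT to 31.7 to 36.9 TPM in UBR4 mKO. Both neighbours moved further than Rbbp4 in the same direction, and their part in the Rbbp4 value was not tested. Other overlaps on the opposite strand concern Rbbp7 (174 of 2909 exonic bases, with Txlng at 3.37 TPM), Asf1a (1748 of 3638, with Mcm9 at 0.355 TPM) and Chaf1a (4648 of 8854, with Ubxn6). Ubxn6 was at 14.9 TPM, far above the 0.607 TPM of Chaf1a, so the level of Chaf1a is uncertain.

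**Figure D3:**
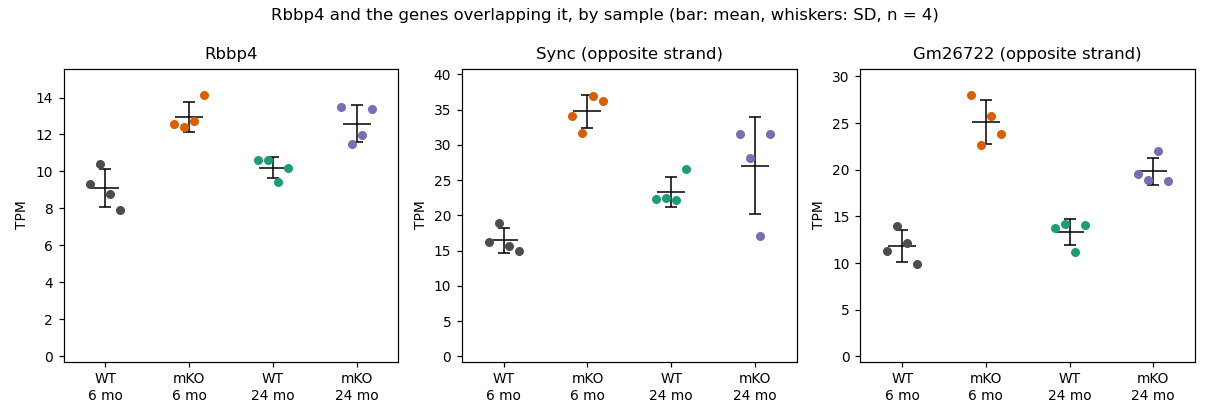
Level in TPM (vertical axes) of Rbbp4, Sync and Gm26722 in the 4 groups. Points are samples, bars are means and whiskers are SD (n = 4). All 3 are higher in every UBR4 mKO than in every WT sample at 6 months, and Rbbp4 and Gm26722 also at 24 months.

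At 24 months the same comparison in old muscle found no member called by limma on the TPM as deposited (2 of 7 had an unadjusted p under 0.05), where 0.433% of all genes were called higher. The level of Rbbp4 was again higher in all UBR4 mKO samples (13.5, 11.5, 12.0 and 13.4 TPM) than in all WT samples (10.6, 10.6, 9.42 and 10.2 TPM), which 4.29% of tested genes also showed. Its change was 0.30 with an interval of 0.10 to 0.50 (adjusted p = 0.221). After median-of-ratios scaling Rbbp4 rose by 0.28 ± 0.06 (adjusted p = 0.0433), the only member called, where 0.414% of genes were called higher. That call held without WT replicate 2 or UBR4 mKO replicate 2 at 24 months and was lost without any one of the other 14 samples (0.24 to 0.32 over the 16, adjusted p = 0.0291 to 0.154). It was lost as well with Xist as a covariate (0.28, adjusted p = 0.058). Gm26722, the noncoding RNA that overlaps Rbbp4, was at 13.8, 14.2, 11.2 and 14.0 TPM in WT and at 19.6, 18.9, 22.0 and 18.8 TPM in UBR4 mKO, and rose by 0.57 (adjusted p = 0.0298). Sync did not pass (0.17, adjusted p = 0.831). The median over all genes was 0.01 as deposited and -0.01 after scaling, and the genes called lower went from 21 to 53. The SE of the Rbbp4 change went from 0.0967 as deposited to 0.0613 after scaling. The scaling thus decided the Rbbp4 call while hardly moving its value.

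Hat1 was at 8.75, 7.21, 7.27 and 7.33 TPM in WT and at 8.66, 7.92, 7.98 and 7.88 TPM in UBR4 mKO at 24 months. In both groups replicate 1 stood above the rest, and the groups overlap only through WT replicate 1. The change was 0.09 with an interval of -0.13 to 0.31 (adjusted p = 0.889) and 0.07 after scaling (adjusted p = 0.765). Rbbp7 was at 50.2 to 65.2 TPM in WT and 54.9 to 69.9 TPM in UBR4 mKO (0.16, adjusted p = 0.665), and Nasp at 1.93 to 2.16 and 1.96 to 2.30 TPM (0.03, adjusted p = 0.982). Neither these nor Asf1a (0.18, adjusted p = 0.540) and Hdac2 (0.12, adjusted p = 0.784) passed the test. Asf1b was at 0.182 to 0.452 TPM in WT and 0.366 to 0.650 TPM in UBR4 mKO (exact permutation p = 0.0857), and Chaf1b at 0.0365 to 0.101 and 0.0977 to 0.156 TPM (exact permutation p = 0.0571). For these low genes, as for Chaf1a (exact permutation p = 0.914), the groups overlap, and the exact permutation p adjusted over 20355 genes was 0.701 to 1. Even a gene without overlap had an adjusted exact permutation p of 0.61 there, so no low gene could pass. Leukocyte markers summed to 30.3 to 63.1 TPM in WT and 75.8 to 312 TPM (median 99.1) in UBR4 mKO at this age, with 0 of the 5 tested markers called on either scale by limma (4 at an unadjusted p under 0.05). Adipocyte markers summed to 211 to 277 and 299 to 350 TPM, with 1 of 3 tested higher as deposited and 0 after scaling (3 at an unadjusted p under 0.05). The part of either list in the Rbbp4 value was not tested.

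The comparison of 24 with 6 months in WT asks how the genes change with age in muscle that keeps Ubr4. It uses the same 4 WT samples of 6 months as the genotype comparison at that age, and the difference in Xist runs along with it. On the TPM as deposited, Hdac1 was the only member called, with 24.0% of all genes called higher. After median-of-ratios scaling Hdac1 rose as well, and Hdac2 and Hat1 fell. With Xist as a covariate no member was called on either scale, but the genes called over the whole table also went to 554 higher and 4 lower as deposited, and to 0 of 10628 after scaling (988 at an unadjusted p under 0.05), where no member could pass. Markers of other cells and of slow fibers moved with age in WT. Of the 5 tested leukocyte markers 3 rose (1 after scaling), and their list summed to 16.3 to 24.2 TPM at 6 and 30.3 to 63.1 TPM at 24 months. Of 7 slow myofiber markers 2 fell on both scales (1 rose as deposited), with sums of 95.1 to 183 and 58.5 to 80.9 TPM. Of 6 endothelial markers 0 were called by limma as deposited (1 at an unadjusted p under 0.05) and 4 fell after scaling. Satellite cell markers had 1 of 3 tested higher on both scales (1.93 and 1.67), with sums of 21.3 to 28.0 and 33.5 to 40.8 TPM. On both scales 1 of 6 fibroblast and 1 of 3 tested adipocyte markers fell, and the adipocyte sums were 281 to 319 and 211 to 277 TPM. Of 4 tested Schwann cell markers 2 rose as deposited and 0 by limma after scaling (0 also at an unadjusted p under 0.05). Their part in the member values was not tested.

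Hdac1 was at 2.35, 2.38, 2.22 and 2.05 TPM at 6 months and at 4.97, 3.49, 5.16 and 5.49 TPM at 24 months in WT. The groups stand well apart, as they do for 24.1% of tested genes, with replicate 2 the lowest of the old samples. Hdac1 rose by 1.04 ± 0.15 on the log2 scale, 2.05 times (adjusted p = 0.000368), and by 0.77 ± 0.14 after scaling (adjusted p = 0.00287), where 4.44% of genes were called higher. With Xist as a covariate the value was 1.06 ± 0.35 (adjusted p = 0.0638), and 0.51 with both Xist and scaling (adjusted p = 0.637). The copy Gm10093 went the other way: it was at 1.45, 1.76, 1.82 and 1.49 TPM at 6 months and at 0.488, 1.03, 0 and 0.123 TPM at 24 months in WT, and fell by 2.30 on the log2(TPM + 0.1) scale (adjusted p = 0.00511). After scaling it fell by 2.56 (adjusted p = 0.00574).

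Summing the gene and its copy, each weighted by its length, removes the choice of which of them a shared read is given to. The sum was at 3.37, 3.63, 3.51 and 3.10 TPM at 6 months and at 5.32, 4.22, 5.16 and 5.57 TPM at 24 months in WT, still without overlap. It rose by 0.56 ± 0.12 (adjusted p = 0.00434), against 1.04 for Hdac1 alone, and after scaling the value was 0.29 (adjusted p = 0.0926). The way reads of the pair were assigned is not stated, and its part in the rise of Hdac1 was not tested further.

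The same pair was read in UBR4 mKO. Hdac1 was at 2.82, 2.73, 3.15 and 2.81 TPM at 6 months and at 3.22, 2.68, 3.13 and 4.48 TPM at 24 months, with overlap and a change of 0.20 (adjusted p = 0.532). Gm10093 was at 1.97, 1.62, 2.10 and 1.03 TPM in old UBR4 mKO, with 3 samples above all old WT samples and replicate 4 level with the highest. In young UBR4 mKO it was at 2.36, 1.93, 2.36 and 1.98 TPM, and both it and Hdac1 were higher in every one of these samples than in every young WT sample. Between the genotypes at 24 months Hdac1 differed by -0.49 with an interval of -0.82 to -0.17 (adjusted p = 0.210; -0.51, adjusted p = 0.103, after scaling) and Gm10093 rose by 2.31 (adjusted p = 0.0438; 2.28, adjusted p = 0.0474, after scaling). The sum of the pair differed by -0.15 (adjusted p = 0.787). Between the genotypes at 6 months the sum rose by 0.36 (adjusted p = 0.0202), and after scaling its value was 0.02 (adjusted p = 0.932).

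**Figure D4:**
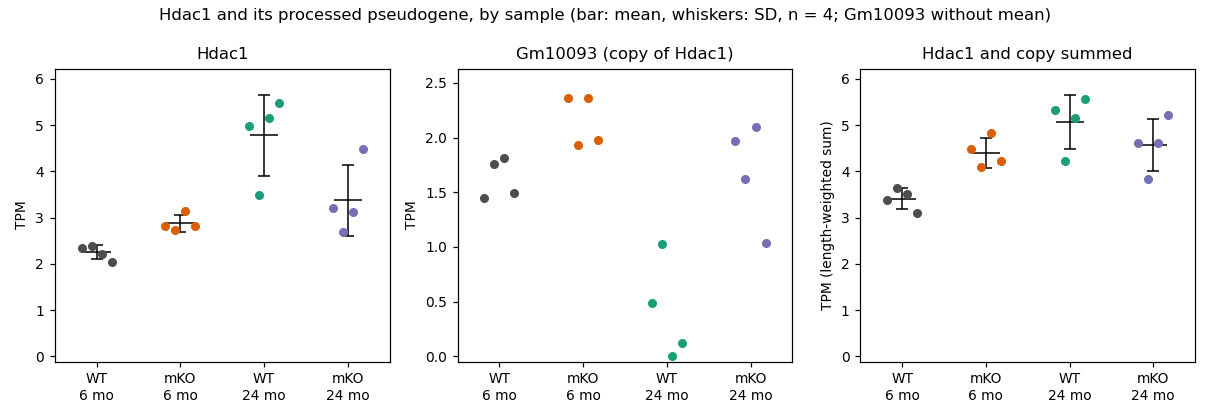
Level in TPM (vertical axes) of Hdac1, of its processed pseudogene Gm10093 and of both summed with length weights, in the 4 groups. Points are samples, and for Hdac1 and the sum bars are means and whiskers are SD (n = 4). In WT at 24 months Hdac1 is at its highest (3.49 to 5.49 TPM) while Gm10093 is at its lowest (0 to 1.03 TPM), and in the sum the old WT and old UBR4 mKO samples overlap.

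The test of the interaction, whether the change with age differs between genotypes, called Hdac1 alone among the members. Its change with age was smaller by 0.83 ± 0.22 on the log2 scale in UBR4 mKO than in WT (adjusted p = 0.0401), where 4.58% of all genes were called lower. The call was lost after median-of-ratios scaling (-0.51, adjusted p = 0.173), for the sum of Hdac1 and its copy (-0.51, adjusted p = 0.0728), and without any one of 12 of the 16 samples, among them UBR4 mKO replicate 4 at 6 months (-0.84, adjusted p = 0.0647). It held without WT replicate 2 at 6 months, and without WT replicate 2, UBR4 mKO replicate 3 or UBR4 mKO replicate 4 at 24 months.

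Hdac2, the deacetylase that pairs with HDAC1 in the same complexes, was at 16.2, 17.2, 15.1 and 12.9 TPM in WT at 6 months and at 15.3, 14.8, 14.8 and 15.1 TPM at 24 months. The old values lie inside the range of the young ones, and the change was -0.03 (adjusted p = 0.837). In scaled units the groups came apart, at 17.1 to 18.8 and 14.0 to 15.0, and Hdac2 fell by 0.30 ± 0.06 (adjusted p = 0.0051), where 5.33% of genes were called lower. Hat1 behaved alike: its change with age in WT was -0.03 as deposited (adjusted p = 0.813) and it fell by 0.30 ± 0.08 after scaling (adjusted p = 0.0277), from 8.47 to 9.73 scaled TPM to 6.81 to 8.26. The Hdac2 call held without each of the 16 samples in turn, and the Hat1 call was lost without any one of 6 (-0.27 to -0.36, adjusted p = 0.0099 to 0.0896): WT replicates 1, 3 and 4 at 6 months and WT replicates 2, 3 and 4 at 24 months. Over the 16 samples Hat1 and Hdac2 had the highest correlation of any pair of tested members in scaled log2 values (Pearson's r = 0.80), as a description over samples that share groups and scaling.

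The other members gave no call with age in WT. Rbbp7 went from 47.4 ± 4.2 to 57.1 ± 6.5 TPM (SD, n = 4), a change of 0.27 (adjusted p = 0.0526) that was -0.01 after scaling. It passed on the TPM as deposited without WT replicate 2 at 6 months, or without WT replicate 2, UBR4 mKO replicate 2 or UBR4 mKO replicate 3 at 24 months (adjusted p = 0.0202 to 0.0464), and Nasp (0.29, adjusted p = 0.0929) without WT replicate 2 at 6 months (0.41, adjusted p = 0.0113). Rbbp4 (0.17, adjusted p = 0.182) and Asf1a (0.00, adjusted p = 0.984) did not pass, and their scaled values were -0.11 (adjusted p = 0.296) and -0.27 (adjusted p = 0.0685).

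Between 24 and 6 months in UBR4 mKO no member was called by limma on either scale (0 also at an unadjusted p under 0.05), while 2.45% of all genes were called higher and 3.85% lower on the TPM as deposited. Nasp was lower in all old samples (1.99, 2.27, 1.96 and 2.30 TPM) than in all young ones (2.35 to 2.47 TPM), as were 8.49% of tested genes, with a change of -0.17 (adjusted p = 0.517). Hat1 (-0.06, adjusted p = 0.822) and Rbbp4 (-0.04, adjusted p = 0.868) lay closest to 0 together with Rbbp7 (0.03, adjusted p = 0.907). The intervals of these 3 were -0.28 to 0.16, -0.25 to 0.16 and -0.17 to 0.24.

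Ratios of partner genes within a sample do not depend on the scaling, except through the 0.1 added to each TPM before the test. That addition weighs on the ratios with Asf1b (0.340 TPM on average) and Chaf1b (0.0975 TPM), whose levels lie near it. The 6 ratios were compared in the 4 pairwise comparisons, 24 tests in all, and for 5 of them the groups did not overlap, which is the smallest exact permutation p of this design (p = 0.0286). Their p adjusted over the 24 exact permutation tests was 0.137. With only these 5 at the smallest p, none could pass after correction, however large its difference. Hat1 relative to Rbbp4 was at 0.898, 0.816, 0.875 and 0.849 in WT and at 0.643, 0.606, 0.721 and 0.647 in UBR4 mKO at 6 months, lower in 4 of 4 samples than in any WT sample, by 0.39 on the log2 scale. At 24 months it was at 0.825, 0.681, 0.772 and 0.720 in WT and 0.641, 0.691, 0.666 and 0.588 in UBR4 mKO, where WT replicate 2 and UBR4 mKO replicate 2 overlap (log2 difference -0.21, exact permutation p = 0.0571). Hat1 relative to Rbbp7 was lower at 6 months in UBR4 mKO (0.121 to 0.148) than in WT (0.154 to 0.173), by 0.28, and in WT at 24 months (0.112 to 0.149) than at 6 months, by 0.30. Both stayed without overlap when a sample was left out, but the exact permutation p became 0.0571 without WT replicate 1 or 3 at 6 months for the first, and without any one WT sample of 6 months or WT replicate 4 at 24 months for the second.

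Rbbp4 relative to Rbbp7, the 2 WD-repeat partners, was higher in UBR4 mKO at 6 months (0.200 to 0.215) than in WT (0.182 to 0.198), by 0.12 on the log2 scale. The exact permutation p became 0.0571 without any one of the 4 WT samples, UBR4 mKO replicate 1 or UBR4 mKO replicate 4, and with a pseudocount of 1 the difference was 0.08 (exact permutation p = 0.0857). Hdac1 relative to Hdac2 was at 0.145, 0.139, 0.147 and 0.158 in WT at 6 months and at 0.326, 0.236, 0.349 and 0.363 in WT at 24 months, higher by 1.06, and the limit set by the copy of Hdac1 holds for it too. In old UBR4 mKO it was at 0.181, 0.173, 0.206 and 0.266, with 1 sample above the lowest old WT sample (log2 difference -0.61 from old WT, exact permutation p = 0.0571). The paralog ratios Asf1a/Asf1b (exact permutation p = 0.143 to 0.629) and the ratio of the CAF-1 subunits Chaf1a/Chaf1b (0.0857 to 0.943) showed no comparison without overlap.

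**Figure D5:**
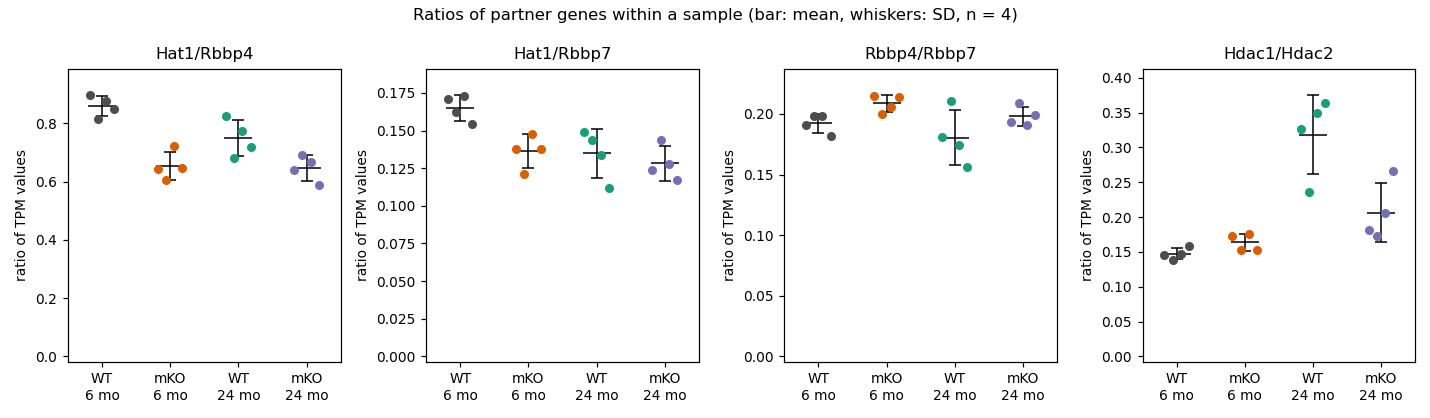
Ratio of the TPM of partner genes within each sample (vertical axes) in the 4 groups. Points are samples, bars are means and whiskers are SD (n = 4). Hat1 relative to Rbbp4 is at 0.606 to 0.721 in UBR4 mKO at 6 months and at 0.816 to 0.898 in WT of that age, and Hdac1 relative to Hdac2 is highest in WT at 24 months.

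The complexes and pathways around the members were read the same way at 6 months, as counts of tested genes called in UBR4 mKO against WT. On the TPM as deposited no gene of the histone lists was called lower, with 43.7% of all genes called higher. The other H3-H4 chaperones had 6 of 16 higher, among them Atrx (0.79, adjusted p = 0.0313), a chromatin remodeller of heterochromatin, Ubn2 (0.74, adjusted p = 0.018) and Cabin1 (0.64, adjusted p = 0.00478), subunits of the HIRA complex. The H2A-H2B chaperones and FACT had 5 of 9 higher, led by the FACT subunit Supt16 (0.46, adjusted p = 0.00939) and by Nap1l1 (0.45, adjusted p = 0.0105). The other acetyltransferases had 2 of 10 higher, Kat2a (0.51, adjusted p = 0.00682) and Kat5 (0.44, adjusted p = 0.00393). The list medians, 0.29, 0.25 and 0.26, stood below the median of all genes.

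The lists of chromatin complexes, which hold RBBP4, RBBP7, HDAC1 or HDAC2, had medians of 0.36 to 0.50 beside the 0.33 of all genes. PRC2, at the top of that range, had 6 of 8 higher, led by its accessory subunit Phf1 (0.65, adjusted p = 0.00231), and the methyltransferase Ezh2 rose by 0.56 (adjusted p = 0.0186). SIN3 subunits had 5 of 13 higher, and Sap30, which links SIN3 to HDAC1, rose by 1.39 (adjusted p = 0.000438) and by 1.04 after scaling (adjusted p = 0.00823). NuRD had 4 of 10 higher, with its remodeller Chd4 at 0.54 (adjusted p = 0.00506). The MuvB, NURF and CoREST subunits had 4 of 8 higher, and Smarca1, the NURF ATPase, rose by 0.96 (adjusted p = 0.00159) and by 0.64 after scaling (adjusted p = 0.0151). The other class I, II and IV HDACs had 5 of 9 higher, with Hdac7 at 0.71 (adjusted p = 0.00153). Replacement histones, which are made outside S phase, had 3 of 6 higher, led by H3f3b, a gene for H3.3 (0.54, adjusted p = 0.000152).

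After median-of-ratios scaling the calls ran in both directions. Against 6.66% of all genes called higher and 10.2% lower, NuRD had 0 of 10 higher and 4 lower, SIN3 had 1 higher and 4 lower of 13, the other H3-H4 chaperones had 1 higher (Cabin1, 0.30, adjusted p = 0.0471) and 3 lower of 16, and PRC2 had 1 higher (Phf1, 0.30, adjusted p = 0.0315) and 0 lower of 8. The H2A-H2B chaperones and FACT had 0 higher and 2 lower of 9, and the replacement histones 0 higher and 1 lower of 6. Limma called 0 of 10 other acetyltransferases (0 also at an unadjusted p under 0.05). The other HDACs had 1 higher and 1 lower of 9, and the MuvB, NURF and CoREST subunits 1 higher and 0 lower of 8. The members, with 0 higher and 1 lower of 7, had a median of 0.00 there. The UBR4 axis, Ubr4 included, had 2 higher and 1 lower of 6 as deposited, and 1 higher and 3 lower after scaling. Ube2b, the ubiquitin-conjugating partner of UBR4, did not pass (0.20, adjusted p = 0.102, and -0.15, adjusted p = 0.161, after scaling). Its paralog Ube2a rose by 0.22 (adjusted p = 0.0434, and -0.13, adjusted p = 0.249, after scaling). Itgb1bp2, which encodes the muscle protein melusin, rose by 1.12 (adjusted p = 9.6e-06) and by 0.77 after scaling (adjusted p = 0.00141). At 24 months none of these histone lists, the members apart, held a gene called by limma on either scale (at most 1 a list at an unadjusted p under 0.05).

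The genes whose scaled levels ran most like each member over the 16 samples, uncharacterised loci left aside, were Dhrs7c, Gtf2h2 and Galt for Hat1 (Pearson's r = 0.84 to 0.85), Necap2 and Rhoa for Rbbp4 (0.88 to 0.89), and Ywhae, Prmt1 and Plcl2 for Rbbp7 (0.81 to 0.84). None was a member or a gene of the lists. Between the members themselves the values were lower: Hat1 had r = 0.09 with Rbbp4 and 0.05 with Rbbp7, and Rbbp4 had 0.52 with Rbbp7, all as a description over samples that share 4 groups.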

How the data were processed

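The deposited table holds TPM values that the authors computed from paired reads of 100 bases, trimmed and mapped to mm10 (GRCm38) in CLC Genomics Workbench. Per the labels the library kit keeps strand, but the study's methods name another kit, and strand use in counting, annotation release and treatment of reads with several matches are not given in the sources used here. Depth is unknown. Groups came from the sample titles; the study's text gives 3 replicates for RNA-seq, while the table and labels hold 4 a group, all used. TPM was tested with limma 3.58.1 in R 4.3.3 on log2(TPM + 0.1), for genes with mean TPM of at least 1, with 1 coefficient per group, a variance trend and Benjamini-Hochberg adjustment at 0.05. Fold changes on this scale understate the change of low genes. Members under the minimum were tested by exact permutation. Median-of-ratios factors were computed from genes above 0 in every sample. The code was tested on simulated data. Transcript alignment used minimap2 2.31 and GENCODE for GRCm38. Alternatives covered pseudocount, filter, scaling, variance model, covariates, Dunn's test, a replicate block and each sample left out. The members and lists were chosen with earlier results of these data known. All 10 members are named, with up to 3 called genes of largest change at 6 months per list, plus Ubr4 and Ube2b, and the 3 genes most correlated with Hat1, Rbbp4 and Rbbp7, of which 1 is not reported here. Among the replicates no 2 samples held identical values. The same replicate numbers did not mark pairs: the correlation of their deviations ran from -0.35 to 0.181 over 24 pairs, above 0.1 in 4.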

Additional observations from a re-analysis of the deposited data

Results flagged for a closer look

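In 40 groups of 4 samples (10 members in 4 groups), 2 held a sample far from the other 3 by Dixon's test at 95%, which chance flags in about 1 group in 20. Hat1 in WT replicate 1 at 24 months was at 8.75 TPM, above the others at 7.21 to 7.33 TPM. Hat1 in UBR4 mKO replicate 1 at 24 months was at 8.66 TPM, above the others at 7.88 to 7.98 TPM.

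The change of Hdac1 with age differed between genotypes by the interaction test on the TPM as deposited (-0.83 on the log2 scale, adjusted p = 0.0401, limma). That call was lost after median-of-ratios scaling (-0.51, adjusted p = 0.173), with the replicate block (adjusted p = 0.0533) and without any one of 12 of the 16 samples. At 24 months Hdac1 was lower and Gm10093 higher in the mean of UBR4 mKO than of WT, and at 6 months both means were higher. The part of the copy was not tested beyond the sum of both, for which the difference was -0.51 (adjusted p = 0.0728).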

How the results depend on the processing

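The counts of members called changed with the scaling, the sample weights and the covariates. At 6 months the 3 members called in UBR4 mKO against WT became 1 with median-of-ratios scaling (Asf1a, whose value turned from 0.07 to -0.28), 1 with upper-quartile scaling or without mitochondrial genes (Rbbp4 both times), 5 with array weights and 0 with scaling plus either the replicate block or the Xist covariate. At 24 months 0 became 1 with either scaling (Rbbp4) and 2 with array weights, and the scaled call of Rbbp4 was lost with the replicate block (adjusted p = 0.0912). With age in WT 1 became 3 with either scaling and with the block plus scaling, 4 with array weights, and 0 with the Xist covariate, alone or with scaling, and with Dunn's test. Dunn's test and Xist with scaling called 0 of all 10628 genes there (2840 and 988 at an unadjusted p under 0.05), so no member could pass. The interaction call (1) became 0 without the filter, with either scaling, without mitochondrial genes, with the replicate block (Hdac1 adjusted p = 0.0533), with the block plus scaling and with Xist plus scaling, and 2 with array weights. For the ratios, 5 comparisons without overlap became 0 with the replicate block, whose smallest possible p is 0.125. The block changed no other count of calls. Leaving out each sample gave 3 to 4 calls at 6 months, 0 to 0 at 24 months, 1 to 3 with age in WT, 0 to 0 with age in UBR4 mKO, 0 to 2 for the interaction and 2 to 7 ratios. The added alternatives (a Y-linked covariate, Xist with scaling, Hdac1 summed with its copy, samples left out under scaling) were chosen after seeing the data. Of 1151 values of single members under an alternative, 1084 kept their side of the threshold, 39 lost it, 27 gained it and 1 reversed, and 81 values not called under either setting changed sign. Depth limits are unknown, and 4 samples a group cannot show small changes.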
